A study of Mus musculus with 19 samples.

Results

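Acute stress by immobilization was compared with acute exposure to odors, cell class by cell class, in the medial amygdala of the mouse. The 8 libraries of these 2 groups, 4 after immobilization and 4 after odor, were taken by their labels from the 16 libraries in the table of all cells; the series has 19 labelled libraries. They held 11076 of the 20679 cells in that table, 5612 after immobilization and 5464 after odor.

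All mice were male, of the strain C57BL/6J, with no genetic change in the labels, and all cells came from the medial amygdala, a forebrain region for social and threat-related behaviour. The tissue was dissociated by Act-Seq, a protocol that keeps transcription low while cells are set free, and the cells were counted by Drop-seq, in which droplets with barcoded beads tag each transcript with a unique molecular identifier (UMI). Immobilization 2 and 3 and odor 1 and 2 were from mice of 9 weeks, and immobilization 1 and 4 and odor 3 and 4 from mice of 8 weeks, so age was balanced between the groups. The odor used, its duration and the time from either handling to dissection are not given in the labels, and the labels set the odor cells aside for cell typing. The odor group is therefore a second handled group and not an untouched baseline. Untreated (naive) mice of 8 weeks, 5 libraries with at least 10 cells of a class (4 for mural cells), are given below as levels only, with no test. Whether each library was its own animal is not in the labels; p-values here measure the spread between libraries, which may be technical.

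Stress reaches the brain through adrenal glucocorticoids, which enter cells and switch on genes through their nuclear receptor, and through noradrenaline and changes in blood flow. Endothelial cells line the vessels and meet such signals first; in them, as in neurons, immediate early genes are switched on within minutes, many through the factor CREB and its DNA element, the CRE. Heat shock proteins are chaperones that fold other proteins and are induced when proteins unfold.

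Counts were summed per library over each of the authors' cell classes, and levels are given as CPM, the count scaled to 1e+06 UMIs of that library in that class. Differences are log2 values of immobilization minus odor, and a gene passed at an adjusted p under 0.05 within its class, by the quasi-likelihood test of edgeR with Benjamini-Hochberg adjustment. Libraries held 182 to 2189 cells and 292455 to 3723521 UMIs in all, with a median of 1248 UMIs per cell after immobilization and 1154 after odor. Immobilization 4 (182 cells) and odor 4 (425 cells) were the smallest. In mural cells both were left out for having under 10 cells.

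The class labels were checked against marker genes. Summed markers of astrocytes, endothelial cells, microglia, mural cells, oligodendrocytes and their precursors were highest in the class of that name. No marker passed the test in any class. Within precursors, the 9 precursor markers summed to 8240 to 11900 CPM after immobilization and 9040 to 10700 CPM after odor. The 10 oligodendrocyte markers there summed to more in most libraries, 9720 to 25000 and 17600 to 30300 CPM. The 12 neuronal markers were also highest in class N, where they summed to 4300 to 7840 CPM after immobilization and 2560 to 11100 CPM after odor. In every other class they summed to at most 1700 CPM. Within class N, however, they were below the 11 astrocyte markers, which summed to 20500 to 22000 and 20300 to 22800 CPM. In the astrocyte class those astrocyte markers summed to 37600 to 41400 CPM. The class is called N below and is not read as neurons.

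Over the 7 classes, 57 pairs of a gene and a class passed, from 53 genes. Of these pairs 45 were higher after immobilization and 12 lower. Endothelial cells had 31 of them, the largest number in any class. Cdkn1a, which stops the cell cycle, passed in 3 classes, and so did Nfkbia, which holds the inflammatory factor NF-kappaB in the cytoplasm; no gene passed in exactly 2.

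**Figure D1:**
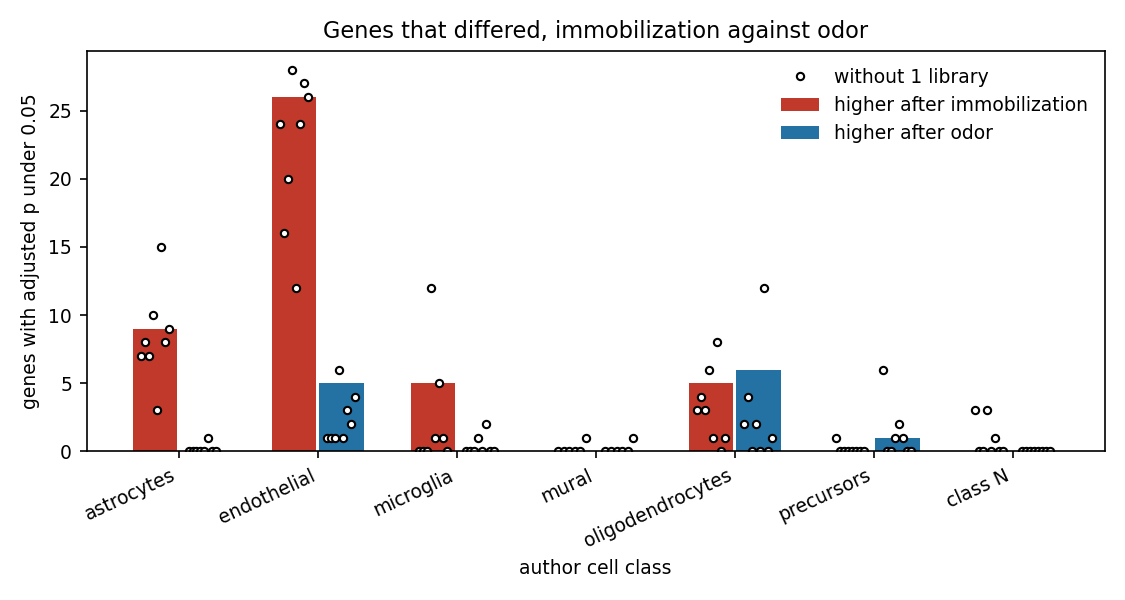
Bars give the number of genes past the threshold (y axis) in each author class (x axis), in red for higher after immobilization and in blue for higher after odor; open points give the same count with 1 library left out. Endothelial cells had 26 genes higher and 5 lower, and the count of higher genes was between 12 and 28 with any 1 library left out.

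In endothelial cells a set of acute response genes was several-fold higher after immobilization than after odor. Of 2194 genes tested, 26 were higher (1.19%) and 5 lower (0.228%). Their log2 differences ranged from 0.97 to 4.67 among the higher genes, and 23 of the 26 had no overlap between the groups. For 4 of the 23 (Nr4a1, Crem, Tnfrsf12a and Ctla2b) this was fixed by the filter on low counts, as given below. Groups without overlap and with immobilization higher made up 3.19% of all genes tested (70 of 2194).

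Apold1, an early response gene of the vessel wall (chr6:134981718-134986836, plus strand), led the class. Its level was 1680, 1270, 2030 and 2210 CPM in immobilization 1 to 4 and 216, 116, 191 and 204 CPM in odor 1 to 4. Every immobilization library was thus far above every odor library, and the odor libraries lay in the range of the naive ones (78.8 to 334 CPM). The means were 1800 ± 415 CPM and 182 ± 45.0 CPM (SD, n = 4 each), a log2 difference of 3.40 (SE 0.26, adjusted p 4.03e-09), or 10.6-fold. The difference was as large in mice of 8 weeks (3.39) as in mice of 9 weeks (3.36), and each passed alone (adjusted p 0.0104 and 1.69e-05).

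The signalling and cytoskeletal genes came next. Cdc42ep3, an effector of the GTPase Cdc42 (chr17:79333727-79355091, minus strand), stood at 534, 691, 662 and 907 CPM after immobilization and at 176, 107, 117 and 67.9 CPM after odor, with a log2 difference of 2.44 (SE 0.27, adjusted p 3.52e-06). Tmcc3, a membrane protein of the endoplasmic reticulum (chr10:94311949-94590956, plus strand), stood at 404, 858, 703 and 509 CPM against 88.2, 132, 74.3 and 136 CPM (log2 2.66, SE 0.30, adjusted p 5.33e-06). Gch1, the first enzyme on the way to tetrahydrobiopterin, a cofactor of nitric oxide synthase (chr14:47153895-47189413, minus strand), stood at 361, 447, 377 and 464 CPM against 118, 124, 63.7 and 67.9 CPM (log2 2.04, SE 0.29, adjusted p 0.000119). In all 3 genes every immobilization library lay above every odor library, and naive libraries reached at most 174 CPM.

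Transcription factors and their kin formed a second group. Nr4a1, an orphan nuclear receptor and immediate early gene (chr15:101254269-101274795, plus strand), stood at 151, 161, 275 and 111 CPM after immobilization. After odor it had 16.5 CPM in odor 2 and no UMI in the other 3 libraries. In all there were 80 UMIs against 2, a ratio of rates of 29.5 (exact 95% interval 7.91 to 248, counting error only). The fitted log2 difference was 4.67 (SE 0.66, adjusted p 0.000119), a value that depends on the prior count of the fit because the odor counts are so few. Maff, a small Maf leucine zipper factor (chr15:79346621-79359076, plus strand), stood at 224, 518, 367 and 398 CPM against 19.6, 41.3, 95.5 and 136 CPM (log2 2.80, SE 0.40, adjusted p 0.000121). Klf6, a zinc finger factor (chr13:5861482-5870394, plus strand), was the steadiest, with 951 to 1080 CPM after immobilization and 272 to 559 CPM after odor (log2 1.30, SE 0.20, adjusted p 0.000345). No library of one group overlapped the other for Nr4a1, Maff or Klf6, though for Nr4a1 the filter on low counts fixed this.

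Further genes of the same class act at the surface or on kinases. Adamts1, a secreted protease of the matrix, stood at 245, 405, 550 and 398 CPM after immobilization and 118, 57.8, 63.7 and 67.9 CPM after odor (log2 2.36, SE 0.34, adjusted p 0.000121). Dusp1, which switches off MAP kinases, stood at 404, 298, 550 and 420 CPM against 108, 82.6, 138 and 136 CPM (log2 1.95, SE 0.29, adjusted p 0.000238). Tnfrsf12a, the receptor for the cytokine TWEAK, stood at 221 to 304 CPM against 53.1 to 74.4 CPM (log2 2.05, SE 0.32, adjusted p 0.000297). Groups did not overlap in these 3 genes, though for Tnfrsf12a the filter on low counts fixed this. Naive levels of Adamts1 reached from 57.3 to 479 CPM and overlapped both groups, whereas those of Tnfrsf12a (8.75 to 58.9 CPM) did not reach the immobilization libraries.

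**Figure D2:**
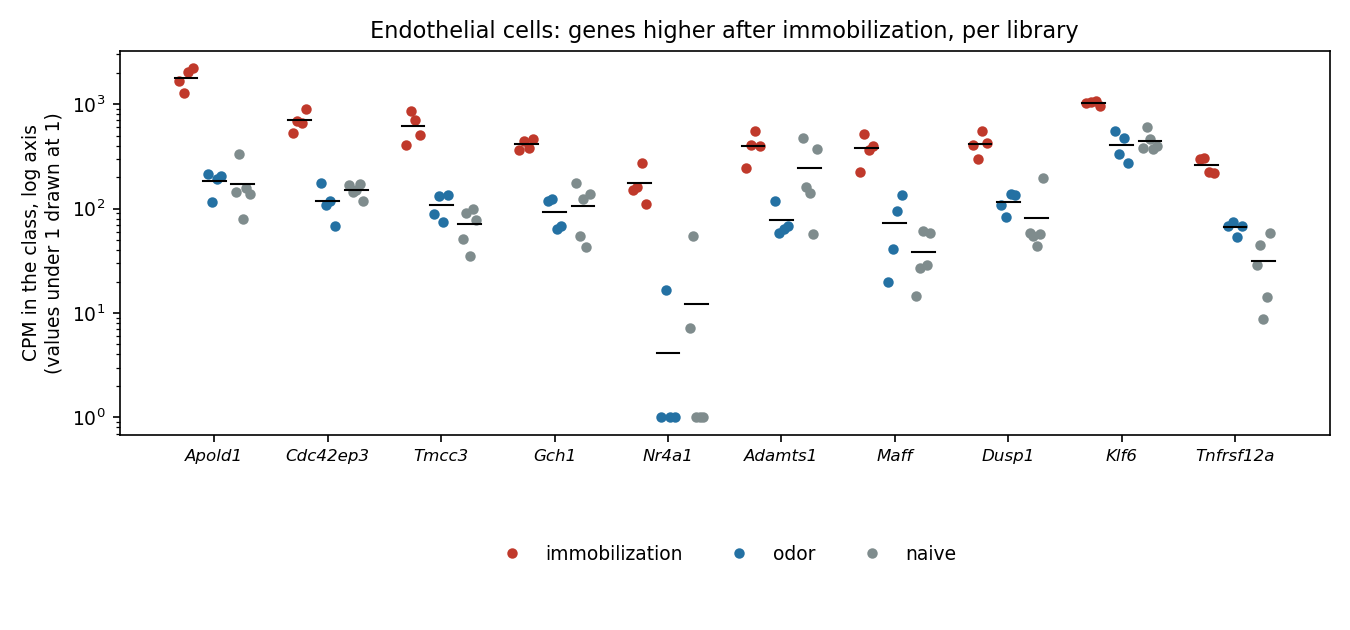
Levels of 10 genes in endothelial cells, in CPM on a log axis, 1 point per library and a bar at the mean (immobilization n = 4, odor n = 4, naive n = 5; values under 1 are drawn at 1). In each of these genes every immobilization library lies above every odor library, which for Nr4a1 and Tnfrsf12a was fixed by the filter on low counts. Apold1 is at 1270 to 2210 CPM after immobilization and at 116 to 216 CPM after odor.

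The other 16 higher genes had log2 differences of 0.97 to 1.71. They include Crem, a CREB family factor (1.71, SE 0.35, adjusted p 0.00832), Sat1, an enzyme of polyamine breakdown (1.40, adjusted p 0.0041), Btg2, which restrains cell division (1.39, adjusted p 0.0187), the immediate early gene Ier2 (1.10, adjusted p 0.0322) and Cdkn1a (0.97, adjusted p 0.0157). Synm, Akap12, Snrk, Gimap6, Sec14l1, Usp46, Rnf125, Tmem252 and Cttnbp2nl also passed. So did Ctla2a and Ctla2b, a pair of near-identical protease inhibitors whose reads the counting may have split between them, so their separate values are uncertain. For Btg2, Rnf125 and Snrk the groups overlapped. Odor 4, where 1 endothelial UMI is worth 67.9 CPM, had the highest odor value in all 3 (272, 272 and 407 CPM), and immobilization 4 was low for Btg2 (177 CPM).

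Lists of genes set the endothelial difference beside known programmes. Of 28 endothelial acute response genes 16 passed the filter on low counts; 8 of these were higher, none lower (over all endothelial genes tested 1.19% were higher and 0.228% lower), and their median log2 difference was 1.10 against 0.01 over all genes tested. Summed over the 24 of them in the table, they stood at 8820 to 11100 CPM after immobilization, 3940 to 5030 CPM after odor and 3640 to 5630 CPM in naive libraries. Klf2 and Klf4, factors tied to blood flow, had log2 differences of 0.75 and 0.87 and did not pass (adjusted p 0.104 and 0.0705), and Edn1 (0.06), Thbd (-0.26) and Vwf (-0.31) did not pass either. Of 24 immediate early transcription factors 9 were tested and 4 were higher (Ier2, Klf6, Maff and Nr4a1, median 0.87). Of 21 neuronal activity effectors 5 were tested and Crem and Dusp1 were higher. Nr4a1, Crem, Tnfrsf12a and Ctla2b reached the filter level of 99.9 CPM in all 4 immobilization libraries and in no odor library. Lrrn3 did so the other way round. These 5 entered the test through 1 group and so had to differ in the direction seen, with no overlap between the groups. Adamts1, Maff, Sec14l1 and Usp46 reached that level in all 4 immobilization libraries but in 1 odor library, and Gch1, Tmcc3 and Rnf125 in 2. Tiam1 reached it in 1 immobilization library and in all 4 odor libraries. The entry of these genes thus leaned on the group where they were high, although the filter left an overlap possible. Of 20 genes that restrain growth 11 were tested, Btg2 and Cdkn1a were higher, and the median was 0.58. Many of these genes stand on several lists, and the lists were drawn up with results of these libraries known, so the counts are a description.

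Lower after immobilization were 5 endothelial genes. Gkn3, a secreted protein of arterial endothelium, stood at 368, 375, 876 and 133 CPM against 2570, 1400, 1160 and 475 CPM (log2 -1.69, SE 0.35, adjusted p 0.00832), with overlap between the groups. Naive levels of Gkn3 reached from 143 to 3770 CPM and overlapped both groups. Lrrn3, a leucine-rich repeat membrane protein, stood at 22.1 to 50.5 CPM against 124 to 204 CPM (log2 -1.82, adjusted p 0.0195). Tfrc, the transferrin receptor that carries iron across the vessel wall, stood at 66.3 to 310 CPM against 446 to 543 CPM (log2 -1.03, adjusted p 0.0374). Tiam1, an activator of the GTPase Rac (log2 -1.38, adjusted p 0.0337), and the chaperone Hspa8 (log2 -0.84, adjusted p 0.0159) were the others. Tfrc was the 1 gene past the threshold among 20 blood-brain barrier genes tested, whose median was 0.04.

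RNA of red blood cells moved between the endothelial sums. The 5 red cell markers summed to 4460, 32400, 2720 and 89100 CPM in immobilization 1 to 4 and to 29.4, 13400, 19500 and 0 CPM in odor 1 to 4, so the ranges overlapped but the highest values were after immobilization. With these 5 genes removed, 28 genes were higher and 5 lower, and all 31 genes of the first count passed again. Markers of mural cells summed to 5080 to 8290 CPM and 5010 to 10700 CPM, and those of macrophages and leukocytes to 0 to 214 CPM and 0 to 9.8 CPM; their part in the result was not tested. Endothelial cells were 5.97% ± 2.99 of cells after immobilization and 3.43% ± 0.589 after odor (SD, n = 4 each; exact permutation test, two-sided, p = 0.0571, adjusted p 0.4 over 7 classes, smallest p possible 0.0286). Without the smallest library of each group the shares were 4.48% and 3.63% (n = 3 each; exact p = 0.2). The share of no class passed.

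Leaving out 1 library at a time kept 11 of the 26 higher genes past the threshold in every case: Apold1, Cdc42ep3, Tmcc3, Gch1, Nr4a1, Adamts1, Maff, Dusp1, Tnfrsf12a, Klf6 and Sat1. Nr4a1 and Tnfrsf12a entered the test through the immobilization libraries alone, so their direction was fixed by the filter. The count of higher genes fell to 12 without odor 1 and to 16 without immobilization 2. None of the 5 lower genes passed in all 8 cases: 1 gene was lower without immobilization 1, 2 or 3 or odor 1, 2 without odor 3 and 3 without odor 2. In mice of 8 weeks, which include both small libraries, 1 of the 24 higher genes that could be tested passed. In mice of 9 weeks 19 of the 26 passed. All those tested had the same sign at both ages, but they were called on these same libraries. Where the groups did not overlap, the sign within each age was fixed in advance.

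Outside endothelial cells, Apold1 had 13 UMIs after immobilization and 6 after odor among 3371972 and 2734001 UMIs of astrocytes, and none in microglia, against 745 and 57 in endothelial cells. In mural cells, the other cells of the vessel wall, it stood at 142 to 233 CPM and 49.4 to 196 CPM (n = 3 each) with overlapping groups. Tmcc3, in contrast, was present in other classes: in oligodendrocytes it stood at 280 to 412 CPM after immobilization and 309 to 409 CPM after odor.

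Whether a difference varied over classes was tested gene by gene, in 1 fit over all classes with the library as a block. Of 8899 genes tested 17 passed (0.191%). Tmcc3 (adjusted p 3.67e-11), Klf6 (1.39e-06), Cdc42ep3 (7.28e-05), Nr4a1 (0.00136), Cttnbp2nl (0.00259), Snrk (0.0272) and Tnfrsf12a (0.0472) were among them. The first 6 had their largest log2 value in endothelial cells among the classes where they passed the filter. Tnfrsf12a passed the filter in endothelial cells alone, so its place there was fixed by the filter. Klf6 was at 1.30 there and at -0.51 in microglia and -0.61 in precursors. Apold1 (adjusted p 0.0763), Adamts1 (0.203), Dusp1 (0.228) and Maff (1) did not pass this test, so for these 4 a difference between endothelial cells and the other classes was not shown. Tsc22d3 passed (0.000952) with its largest value in microglia, and Marcks (0.00252) with its largest in oligodendrocytes.

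**Figure D3:**
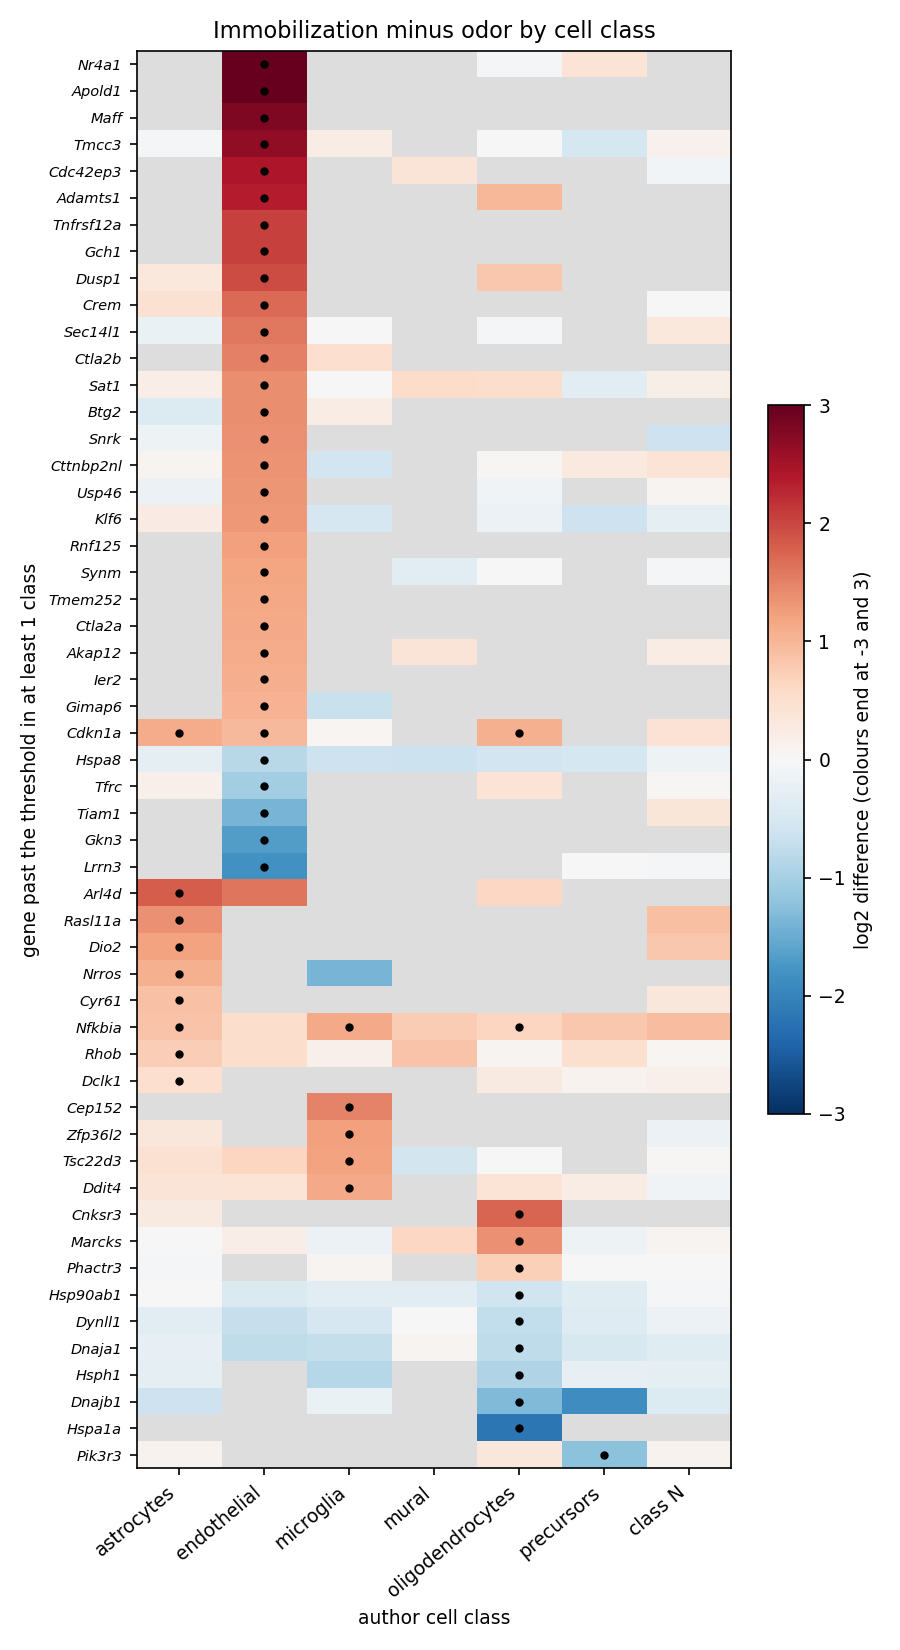
Colour gives the log2 difference, immobilization minus odor (red higher after immobilization, blue higher after odor, grey not tested), for each of the 53 genes (rows) past the threshold in at least 1 author class (columns); black points mark the 57 pairs that passed. Cdkn1a and Nfkbia carry points in 3 classes each, and the chaperone genes of the oligodendrocytes are blue or near white across the classes.

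The promoters of the endothelial genes were read for the CRE, because Crem, Nr4a1 and Dusp1 are textbook targets of CREB. In the sequences, capitals mark the short CRE TGACG, or CGTCA where it lies on the other strand, and the full CRE TGACGTCA. The sequences are the bases before a start of the gene in RefSeq (GRCm38.p6). They run 5′ to 3′ on the gene's strand and stop at the first exon of any annotated transcript. They lie at chr15:101266596-101266845 (Nr4a1, plus strand), chr17:26508520-26508722 (Dusp1, minus strand) and chr1:134079156-134079405 (Btg2, minus strand):
Nr4a1: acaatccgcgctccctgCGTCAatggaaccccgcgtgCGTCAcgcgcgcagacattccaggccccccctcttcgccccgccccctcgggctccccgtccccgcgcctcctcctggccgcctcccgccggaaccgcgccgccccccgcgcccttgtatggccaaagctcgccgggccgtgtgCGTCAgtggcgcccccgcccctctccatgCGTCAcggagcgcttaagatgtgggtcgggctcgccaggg
Dusp1: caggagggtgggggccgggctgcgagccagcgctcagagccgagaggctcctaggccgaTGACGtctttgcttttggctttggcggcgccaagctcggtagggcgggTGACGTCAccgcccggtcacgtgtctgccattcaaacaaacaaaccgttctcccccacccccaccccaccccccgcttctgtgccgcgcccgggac
Btg2: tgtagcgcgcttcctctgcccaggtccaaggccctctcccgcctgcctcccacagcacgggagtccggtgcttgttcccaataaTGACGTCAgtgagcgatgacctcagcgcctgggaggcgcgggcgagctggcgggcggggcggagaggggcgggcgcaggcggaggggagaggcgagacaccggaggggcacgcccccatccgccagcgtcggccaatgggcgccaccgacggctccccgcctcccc
Nr4a1 had 4 short CREs and no full one, whereas Dusp1 and Btg2 each had 1 full CRE. The Nr4a1 window lies inside the span of the gene given above, before a start that is not the first base of that span. Of the 26 higher genes 22 had an entry, and 13 of these (59.1%) had a short CRE within 250 bases before a start, on either strand, Apold1, Maff, Adamts1, Tmcc3 and Gch1 among them. Crem was not among the 13, as it had either no match or no entry. The sequences shown are all of genes with a match. A short CRE was in 17.8% of all 32851 windows of that length, and in 36.9% of the genes tested in endothelial cells that had an entry. The full CRE, which contains the short one, was in 3 of the 22 (13.6%; Btg2, Dusp1 and Maff), in 4.1% of the genes tested in endothelial cells that had an entry, and in 1.55% of all windows. In total 8 patterns were searched after the genes were known (these 2, GAANNTTC, both longer forms of the heat shock element with 3 units, the kappaB and glucocorticoid response patterns given below, and CACGTG). A match is a description of letters and not a bound site.

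Astrocytes had 9 genes higher among 9345 tested (0.0963%) and none lower (0%); 385 genes had an unadjusted p under 0.05, and DESeq2 also called none lower. Dio2, the enzyme that makes active thyroid hormone and is made in the brain mostly by astrocytes (chr12:90724552-90738438, minus strand), led. It stood at 299, 296, 357 and 161 CPM after immobilization and at 123, 132, 140 and 158 CPM after odor. The groups did not overlap, but immobilization 4 lay just above odor 4. The means were 278 ± 83.2 and 138 ± 14.8 CPM (SD, n = 4 each), a log2 difference of 1.20 (SE 0.15, adjusted p 4.51e-07), and naive libraries lay below both at 46.9 to 107 CPM.

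Nfkbia (chr12:55489410-55492647, minus strand) was at 471, 466, 504 and 536 CPM after immobilization in astrocytes and at 215, 357, 275 and 184 CPM after odor (log2 0.87, SE 0.14, adjusted p 0.000258). Arl4d, an ARF-like small GTPase (chr11:101665541-101667832, plus strand), was at 36.6, 56.7, 49.5 and 40.2 CPM against 10.8, 21, 10.6 and 13.1 CPM (log2 1.81, SE 0.29, adjusted p 0.000258). In 4 of the 5 naive libraries Arl4d had no UMI in astrocytes, and in the other it had 0.939 CPM. Dio2, Nfkbia and Arl4d were the 3 genes that passed without any 1 library.

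Of the other 6 astrocyte genes, the GTPases Rhob and Rasl11a had log2 differences of 0.74 and 1.38 (adjusted p 0.00509 for both), and Cdkn1a one of 1.12 (adjusted p 0.00171) with overlapping groups. The matrix protein gene Cyr61 (0.87), the microtubule kinase gene Dclk1 (0.51) and Nrros (1.06, adjusted p 0.0202) passed too. Nrros is best known from microglia; the 10 microglial markers summed to 161 to 368 CPM in astrocytes after immobilization and to 283 to 421 CPM after odor, and in microglia Nrros had a log2 difference of -1.39. The count of astrocyte genes was 3 without odor 1 and 15 higher and 1 lower without odor 2.

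Microglia, the brain's resident macrophages, had 5 genes higher among 4807 (0.104%) and none lower (0%), with 239 at an unadjusted p under 0.05 and none lower by DESeq2. Tsc22d3, or GILZ, a classical glucocorticoid target that dampens inflammation (chrX:140539528-140600659, minus strand), stood at 1290, 1040, 1190 and 660 CPM after immobilization and at 302, 598, 513 and 477 CPM after odor (log2 1.21, SE 0.20, adjusted p 0.00697). Ddit4, a stress-induced brake on mTORC1 (chr10:59949669-59951834, minus strand), stood at 931, 820, 856 and 528 CPM against 200, 576, 382 and 281 CPM (log2 1.13, SE 0.23, adjusted p 0.0424). Nfkbia stood at 735 to 1000 CPM against 168 to 568 CPM (log2 1.13, SE 0.23, adjusted p 0.0424). The groups did not overlap for Tsc22d3 and Nfkbia and overlapped for Ddit4 through immobilization 4.

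The odor libraries themselves stood above the naive ones for 2 of these: Tsc22d3 was at 42.4 to 164 CPM and Ddit4 at 0 to 112 CPM in naive microglia, below every odor library. Naive Nfkbia (42.4 to 260 CPM) overlapped the odor libraries. The centrosome gene Cep152 (172 ± 30.9 against 50.6 ± 35.7 CPM, SD, n = 4 each) and Zfp36l2, which promotes mRNA decay (log2 1.24), passed at the same adjusted p of 0.0424 by edgeR. None of the 5 microglial genes passed in all 8 cases with a library left out. No gene was higher without immobilization 1, 2 or 3 or odor 4, 1 was higher without odor 1 or odor 3, and 12 were higher and 1 lower without immobilization 4, of which 17 cells were microglia.

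**Figure D4:**
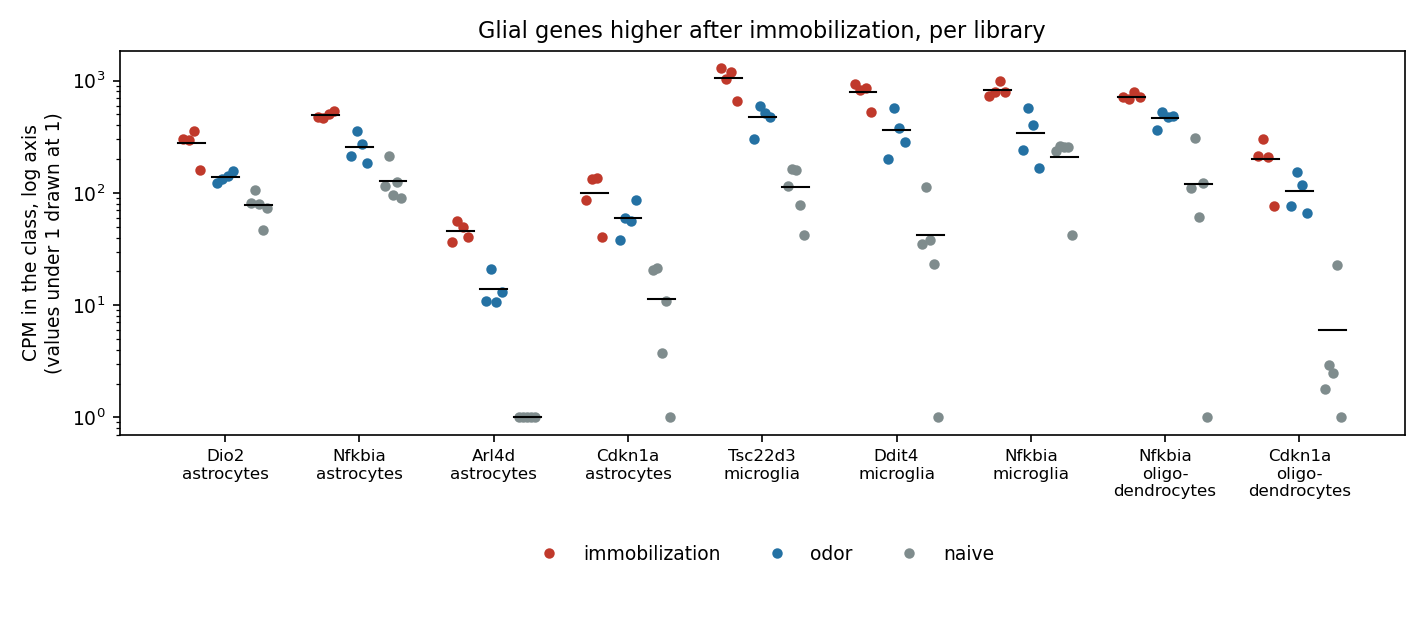
Levels of 9 gene and class pairs in astrocytes, microglia and oligodendrocytes, in CPM on a log axis, 1 point per library and a bar at the mean (immobilization n = 4, odor n = 4, naive n = 5; values under 1 are drawn at 1). In each pair the mean of the odor libraries lies between the immobilization and the naive means, for example 1040, 472 and 112 CPM for Tsc22d3 in microglia.

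Of 35 glucocorticoid responsive genes, 3 of 30 tested were higher in astrocytes (Cdkn1a, Nfkbia and Rhob, median 0.21), 3 of 18 in microglia (Ddit4, Nfkbia and Tsc22d3, median 0.27), 2 of 26 in oligodendrocytes (median 0.11) and 1 of 17 in endothelial cells (median 0.30), and none was lower. Over all genes tested, 0.0963%, 0.104%, 0.0816% and 1.19% were higher in these 4 classes, and the medians lay between -0.01 and 0.01. None was called in precursors (14 tested, median 0.35), mural cells (8 tested, 5 of them negative, median -0.16 against -0.04 over all genes) or class N (29 tested, median 0.07). The chaperone partner Fkbp5, the kinase Sgk1 and the clock gene Per1, all known glucocorticoid targets, did not pass in any class; Fkbp5 was at 0.75 in astrocytes (adjusted p 0.663) and 0.70 in microglia (0.286). Summed over the 33 genes in the table, the list stood at 8220 to 12900 CPM after immobilization, 7100 to 9410 CPM after odor and 4600 to 6600 CPM in naive microglia. In oligodendrocytes the sums were 9880 to 14300, 11000 to 14000 and 4410 to 10800 CPM. The 2 handled groups overlapped in both classes.

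Nfkbia had the same direction in all 7 classes. Its log2 difference was 0.92 in class N (adjusted p 0.0655), 0.81 in precursors (0.8), 0.76 in mural cells (0.521) and 0.52 in endothelial cells (0.453), where it did not pass, beside 0.87, 1.13 and 0.64 where it did. The test over classes found no variation (adjusted p 1), which does not show that the classes were alike. Its promoter (RefSeq, GRCm38.p6, chr12:55492648-55492897, minus strand) is shown because the gene is a textbook target of NF-kappaB itself; capitals mark the kappaB pattern, GGG and TTTCC with 2 free bases between, on the other strand:
Nfkbia: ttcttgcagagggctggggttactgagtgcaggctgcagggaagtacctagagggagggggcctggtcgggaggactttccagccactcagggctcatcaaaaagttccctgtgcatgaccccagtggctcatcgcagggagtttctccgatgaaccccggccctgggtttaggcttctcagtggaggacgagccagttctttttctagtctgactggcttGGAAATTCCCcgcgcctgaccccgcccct
That pattern was in 1.41% of all windows and in none of the 22 higher endothelial genes with an entry. The glucocorticoid response pattern, GNACA and TGTNC with 3 free bases between, was in 0.387% of all windows, and its absence from a window says nothing of the receptor.

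Oligodendrocytes, the myelin-forming cells, differed in both directions, with 5 of 6125 genes higher (0.0816%) and 6 lower (0.098%). The lower genes were mainly chaperones. Hspa1a, the stress-inducible Hsp70 (chr17:34969190-34972156, minus strand), stood at 17.5, 8.57, 2.05 and 0 CPM after immobilization and at 60.9, 28.4, 39.9 and 53.9 CPM after odor. The groups did not overlap, and the naive libraries (0 to 24.6 CPM) lay below the odor libraries. The log2 difference was -2.17 (SE 0.44, adjusted p 0.0268). Hspa1a has a near-identical neighbour, Hspa1b, so its counts may hold reads of both or lack reads that fit both.

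The co-chaperones and partners followed. Dnajb1 stood at 42, 21.4, 28.7 and 50.8 CPM against 97.9, 73.5, 90.3 and 41.9 CPM, with overlap through odor 4 (log2 -1.33, SE 0.29, adjusted p 0.0434). Hsph1, a nucleotide exchange factor of Hsp70, stood at 126, 193, 142 and 0 CPM against 291, 210, 237 and 413 CPM (log2 -0.91, SE 0.21, adjusted p 0.0468). Dnaja1 (log2 -0.76) and Hsp90ab1 (log2 -0.59) passed at the same adjusted p of 0.0468, and Dynll1, a light chain of the motor dynein, at 0.0434 (log2 -0.74). Hsp90ab1 overlapped between groups, and Dnaja1, Hsph1 and Dynll1 did not.

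**Figure D5:**
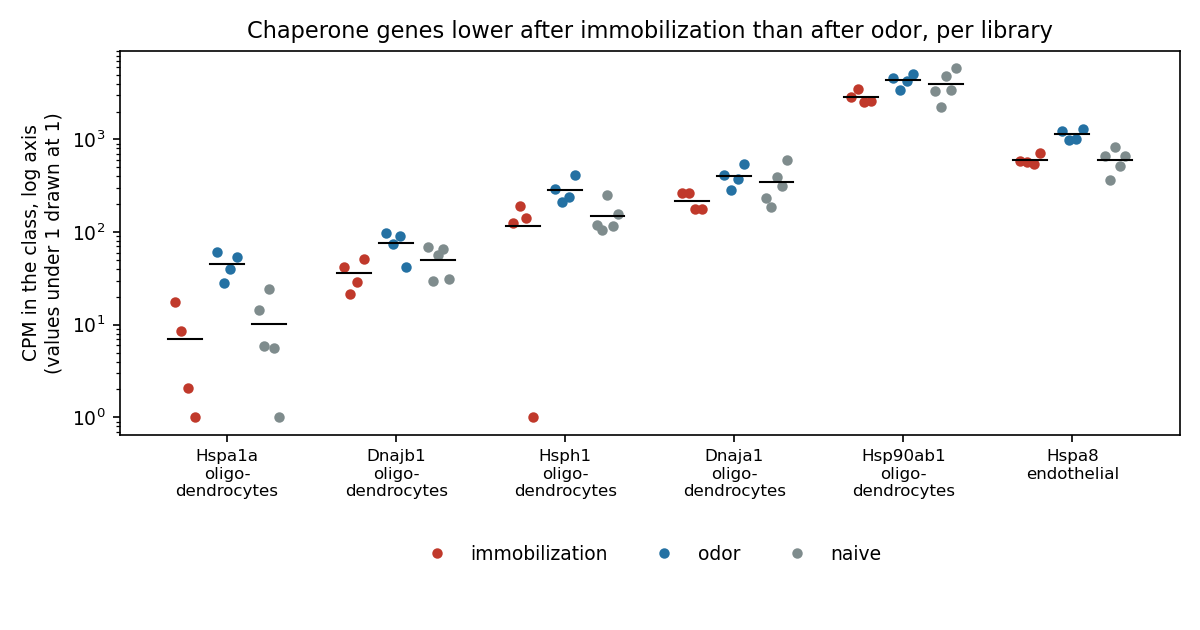
Levels of 5 chaperone genes in oligodendrocytes and of Hspa8 in endothelial cells, in CPM on a log axis, 1 point per library and a bar at the mean (immobilization n = 4, odor n = 4, naive n = 5; values under 1 are drawn at 1). The odor mean is the highest of the 3 in each gene; for Hspa1a the odor libraries are at 28.4 to 60.9 CPM and the immobilization libraries at 0 to 17.5 CPM.

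For the list of 21 heat shock and chaperone genes, the sign of the log2 differences is given by class; in 5 of the 7 classes no member passed. In oligodendrocytes 17 were tested, all 17 had a negative log2 difference (51.7% of all genes tested were negative), 5 passed (0.098% of all genes were called lower) and the median was -0.57 against -0.01 over all genes. Hspa1a reached the filter level of 21.2 CPM in the 4 odor libraries and in no immobilization library. It thus had to be negative, with no overlap between the groups. In precursors all 16 tested were negative and none passed (median -0.36); in microglia 14 of 16 were negative and none passed (median -0.37). In endothelial cells 10 of 13 were negative, Hspa8 passed and the median was -0.47; it stood at 550 to 708 CPM against 992 to 1290 CPM after odor and 361 to 823 CPM in naive libraries. In class N 16 of 17 were negative (median -0.16), in mural cells 7 of 9 (median -0.23) and in astrocytes 10 of 18 (median -0.05), with none past the threshold. Over all genes tested, 48.7% to 52.8% were negative, by class. Genes of this list tend to move together within a library, so the counts of negative values are not independent of one another.

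Summed over the list, oligodendrocytes stood at 10300 to 12600 CPM after immobilization, 13400 to 20400 CPM after odor and 10300 to 19600 CPM in naive libraries, and endothelial cells at 6800 to 7480, 8020 to 12400 and 6030 to 10100 CPM. In both classes the handled groups did not overlap, and the naive libraries overlapped both. In mural cells (7020 to 7890 and 8090 to 8950 CPM) they did not overlap either. They overlapped in astrocytes (4500 to 5720 and 4860 to 6400 CPM), microglia (4400 to 5760 and 5430 to 7210 CPM), precursors (7420 to 10600 and 9560 to 13500 CPM) and class N (5520 to 6510 and 5820 to 7370 CPM). The promoter of Hspa1a (RefSeq, GRCm38.p6, chr17:34972157-34972406, minus strand) is shown as the chaperone gene with the largest difference; capitals mark GAANNTTC, the core of the heat shock element:
Hspa1a: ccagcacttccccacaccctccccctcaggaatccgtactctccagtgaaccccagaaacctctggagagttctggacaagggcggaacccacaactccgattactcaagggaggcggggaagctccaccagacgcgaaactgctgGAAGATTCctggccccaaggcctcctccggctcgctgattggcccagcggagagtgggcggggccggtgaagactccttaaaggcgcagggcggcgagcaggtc
The core was in Hspa1a and Dnaja1 among the 4 lower chaperone genes of 5 that had an entry. It was in 7.73% of all genes with an entry, in 5.75% of those tested in oligodendrocytes, and in 6.69% of all windows. Neither longer form of the heat shock element was in any of these 4 genes, Hspa1a included.

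The 5 genes that were higher in oligodendrocytes were Marcks, a membrane-bound actin regulator (log2 1.36, SE 0.24, adjusted p 0.00622), Cdkn1a (1.07, SE 0.21, adjusted p 0.0149), Nfkbia (0.64, SE 0.14, adjusted p 0.0434), Cnksr3 (1.75, SE 0.40, adjusted p 0.0468) and Phactr3, which binds actin and phosphatase 1 (0.72, SE 0.17, adjusted p 0.0468). Nfkbia stood at 683 to 784 CPM against 365 to 523 CPM. Marcks stood at 249, 311, 201 and 1070 CPM against 159, 102, 107 and 95.8 CPM, and Cnksr3 at 49, 32.1, 41 and 178 CPM against 8.35 to 17.4 CPM. Naive Marcks reached from 65.2 to 504 CPM and overlapped both groups. Precursor markers (9 genes) summed to 1740 to 2010 CPM in oligodendrocytes after immobilization and to 994 to 1660 CPM after odor, with no overlap, and Marcks stood at 2290 to 3180 CPM in precursors of both groups; their part in the result was not tested. Cnksr3 reached the filter level in the immobilization libraries alone, so it had to be positive. The high values of Marcks and Cnksr3 were in immobilization 4, which had 20 oligodendrocytes; without it the log2 differences were 1.10 and 1.58 (adjusted p 0.00257 and 0.0698, so Cnksr3 no longer passed). Core myelin genes were even: 14 of 14 were tested, 7 were positive and 7 negative, and none passed (median -0.01).

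The oligodendrocyte calls depended on single libraries. None of the 11 genes passed in all 8 cases with a library left out, and DESeq2 and the fit over all 4 groups called none. The counts of higher and lower genes were 3 and 2 without immobilization 1, 3 and 0 without immobilization 3, 6 and 2 without immobilization 4, 1 and 0 without odor 1, 8 and 12 without odor 2, 0 and 0 without odor 3, 1 and 1 without odor 4, and 4 and 4 without immobilization 2. All 11 genes kept their sign in each age group, where 1 passed in mice of 9 weeks. They were called on these same libraries, so where the groups did not overlap the sign was fixed in advance.

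Precursors of oligodendrocytes had 1 lower gene among 3030 (0.033%) and none higher (0%), with 157 at an unadjusted p under 0.05. It was Pik3r3, a regulatory subunit of PI3 kinase (chr4:116221618-116303056, plus strand), at 490 ± 169 CPM after immobilization and 1110 ± 271 CPM after odor (SD, n = 4 each; log2 -1.22, SE 0.23, adjusted p 0.0131), with no overlap. It varied over classes (adjusted p 0.0211). Without immobilization 2, immobilization 3, odor 3 or odor 4 no gene passed, 2 were lower without odor 1, and 1 was higher and 6 were lower without immobilization 1. Oligodendrocyte markers summed to 9720 to 25000 CPM in precursors after immobilization and 17600 to 30300 CPM after odor, and their part in the result was not tested.

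Mural cells, compared over 3 libraries against 3, had no gene higher (0%) or lower (0%) among 731 tested, with 64 at an unadjusted p under 0.05 and none by DESeq2. Class N had none higher (0%) or lower (0%) among 8827, with 302 at an unadjusted p under 0.05 and none by DESeq2. In class N 3 genes were higher without immobilization 1 or immobilization 4, and 1 without odor 2; in mural cells 1 was higher and 1 lower without odor 3. The lowest adjusted p among the genes named in class N was that of Nfkbia (0.0655), followed by Dio2 (log2 0.81, adjusted p 0.118), the gene that led in astrocytes. The classical activity genes did not pass there: Fos had a log2 difference of 0.65 (SE 0.39) in class N, Egr1 0.05 (SE 0.19) and Junb 0.38 (SE 0.33), each with an adjusted p of 1. Fos also did not pass in astrocytes (-0.12, adjusted p 0.997).

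The authors' neuron table holds 1188 cells of these libraries, of which 1117 are in class N. Summed alone over 4 immobilization and 3 odor libraries, they gave 6 genes past the threshold. Nfkbia was at 152, 194, 196 and 108 CPM against 77.3, 81.7 and 90.7 CPM (log2 1.07, SE 0.20, adjusted p 0.00801). The other 5 were Meg3 (log2 2.33), Slc17a7 (2.32), Adcy1 (1.36), Snhg11 (1.25) and Crot (-1.02). Meg3, Snhg11 and Slc17a7 are among the 12 neuronal markers, which summed to 3840 to 10300 CPM after immobilization and 2460 to 3700 CPM after odor in these cells, against 19200 to 21900 CPM of astrocyte markers over both groups. The summed neuronal markers of these cells thus did not overlap between the groups, and their part in the other calls was not tested.

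Several lists gave no gene past the threshold in any class: clock genes, homeostatic microglia genes, core myelin genes, precursor genes, Notch and stem cell genes, the integrated stress and unfolded protein response, neuropeptides, ribosomal proteins, oxidative phosphorylation, and dissociation and nuclear RNA. In the last list, which marks damage during dissociation, medians lay between -0.14 (oligodendrocytes) and 0.28 (astrocytes). The metallothioneins Mt1 and Mt2 and the Notch target Hes5 did not pass in any class where they were tested.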

How the data were processed

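Single cells of the medial amygdala were dissociated by Act-Seq and sequenced by Drop-seq. The authors deposited UMI counts per gene and cell, with a class for each cell. Reads were handled with bcl2fastq 2.17.1.14 and STAR 2.5.0a against mm10, per the submitters' processing notes; which tool counted UMIs, whether by strand, and how cells were filtered stands in none of the sources used. The deposited cells each had at least 430 genes, and doublets were not called here because the classes are the authors'. Of the 28 pairs of libraries 7 shared a cell barcode, 8 barcodes in all.

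Counts were summed per library and class with at least 10 cells, and compared in edgeR 4.0.16 by its quasi-likelihood test (R 4.3.3; TMM scaling, filterByExpr, Benjamini-Hochberg within a class, threshold 0.05). SE is the log2 difference divided by the square root of F. A joint fit with the library as block tested class by group terms, and class shares had an exact permutation test. DESeq2 1.42.0 and other settings were alternatives. Sums and exact tests used Python 3.11.15, pandas 2.3.3, numpy 2.4.6 and scipy 1.17.1. Gene coordinates are those of GENCODE release 21 for mouse (GRCm38). In astrocytes, the class examined, libraries of a group differed by more than sampling noise (chi-square per degree of freedom 1.53 to 2.35). On simulated counts with 200 changed genes a class, changes of 1 on the log2 scale were recovered in 46.4% (mural cells, 731 genes), 51.9% (endothelial cells, 2194 genes), 52.7% (microglia, 4807 genes), 62.7% (oligodendrocytes, 6125 genes), 68.2% (precursors, 3030 genes), 68.8% (astrocytes, 9345 genes) and 76.6% (class N, 8827 genes) of cases, and no sign was wrong. Unchanged genes called numbered 2, 7, 13, 15, 5, 13 and 12 in the same order. The comparison itself called from 0 genes (mural cells and class N) to 31 (endothelial cells). Benjamini-Hochberg adjustment is stricter where fewer genes change, so these percentages may overstate what the comparison could detect. A class without calls is thus not shown to be unchanged. 

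The comparison, its 19 gene lists and the 16 genes followed in every class were chosen with earlier results of these data known. Named were the 5 genes of lowest p in each class and direction, genes past the threshold in 3 classes, list members past it and those 16; the remaining genes past the threshold were named for completeness, after their values were seen. Promoter patterns were searched after the calls were known.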

Additional observations from a re-analysis of the deposited data

Results flagged for a closer look

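In groups of 4 libraries, 8 of 114 groups of named genes had a library apart from the other 3, where chance flags about 1 in 20. Immobilization 4, the smallest library, accounted for 3: Zfp36l2 in microglia at 660 CPM against 265 to 296 CPM in the others, Cnksr3 in oligodendrocytes at 178 CPM against 32.1 to 49 CPM, and Marcks in oligodendrocytes at 1070 CPM against 201 to 311 CPM. In endothelial cells Snrk was at 465 CPM in immobilization 2 against 317 to 336 CPM, and at 407 CPM in odor 4 against 99.2 to 149 CPM. Endothelial Adamts1 was at 118 CPM in odor 1 against 57.8 to 67.9 CPM, Tfrc at 446 CPM in odor 2 against 529 to 543 CPM, and Nr4a1 at 16.5 CPM in odor 2 against 0 CPM in the others.

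The difference between immobilization and odor varied over classes for 17 genes by the joint edgeR test. The adjusted p was 3.67e-11 for Tmcc3, 1.39e-06 for Klf6, 7.28e-05 for Cdc42ep3, 0.00136 for Nr4a1, 0.00259 for Cttnbp2nl, 0.0272 for Snrk and 0.0472 for Tnfrsf12a, which were higher in endothelial cells. It was 0.000952 for Tsc22d3 and 0.0266 for Cep152, higher in microglia, 0.00252 for Marcks, higher in oligodendrocytes, 0.000395 for Nrros, higher in astrocytes, and 0.0211 for Pik3r3, lower in precursors. Cep152 passed the filter in microglia alone and Tnfrsf12a in endothelial cells alone, so the filter fixed their places.

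The other 5 genes passed in no single class. Ptgds, which makes prostaglandin D (adjusted p 0.000407), had log2 differences of -3.09 in mural cells, -1.02 in microglia and 0.19 in oligodendrocytes. The microglial value joins opposite signs, 2.11 in mice of 8 weeks and -2.48 in mice of 9 weeks. The mural value rests on odor 2 (50400 CPM against 10700 and 1410 CPM in the others); without it the difference was -1.17. Nfasc, an adhesion protein of nodes and axons (0.000939), had -0.89 in precursors and 0.65 in class N. Vcam1 (0.0258) had -1.96 in microglia and 0.16 in astrocytes. Lpar6, a lysophosphatidic acid receptor (0.0258), had 0.96 in oligodendrocytes and -0.77 in endothelial cells. Fam13c (0.0382) had -0.86 in precursors and 0.36 in class N.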

How the results depend on the processing

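Depth limits low levels in the small libraries: 1 endothelial UMI is worth 67.9 CPM in odor 4. No pair of a gene and a class that passed changed sign in any alternative, but every alternative drew on the libraries that gave the calls. Scaling by DESeq2-style size factors or by library size alone kept 56 and 55 of the 57 pairs past the threshold, and DESeq2 kept 28. The cause of the changes below was not tested. Without a filter on low counts 19 genes passed in microglia, 5 in mural cells, 19 in oligodendrocytes, 2 in precursors and 8 in class N. With DESeq2 3 passed in astrocytes, 1 in microglia and 0 in oligodendrocytes. In the fit over all 4 groups 2 passed in astrocytes, 12 in microglia, 0 in oligodendrocytes and 0 in precursors. With age as covariate 1 passed in microglia and 5 in oligodendrocytes. In mice of 8 weeks, 2 libraries a group, 1 passed in endothelial cells and 0 in astrocytes, microglia, oligodendrocytes and precursors; in mice of 9 weeks 4 passed in astrocytes, 1 in microglia, 1 in mural cells, 2 in oligodendrocytes and 2 in class N. With at least 20 cells 13 passed in microglia and 2 in mural cells. Without the smallest library of each group 13 passed in microglia, 6 in oligodendrocytes, 0 in precursors and 5 in class N, and the share of class N turned to 1.3 percentage points lower (-1.3). With the neuron table's cells 6 passed in class N.

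With 1 library left out, 3 to 16 genes passed in astrocytes, 13 to 34 in endothelial cells, 0 to 13 in microglia, 0 to 2 in mural cells, 0 to 20 in oligodendrocytes, 0 to 7 in precursors and 0 to 3 in class N. The test over classes gave 16 genes by library size alone, 18 without mural cells and 13 without class N, of which 15, 15 and 13 were among the 17. Removing the red blood cell genes was chosen after seeing the data.

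Replicate numbers are not stated to pair the libraries, and the correlations gave no clear sign of pairing. Of 27 pairs with the same number 2 had a correlation of deviations above 0.1 (range -0.19 to 0.13). In 8 of the 27 the immobilization sum correlated best with the odor sum of its own number. Such weak correlations cannot show that pairing was absent. With the number as a replicate block 22 genes passed in microglia, and 53 of the 57 pairs passed.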
